A study of Saccharomyces cerevisiae with 2 samples.

Results

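The 10 genes described here encode enzymes of the tricarboxylic acid cycle of *Saccharomyces cerevisiae*: CIT1 (YNR001C), ACO1 (YLR304C), IDH1 (YNL037C), IDH2 (YOR136W), KGD1 (YIL125W), KGD2 (YDR148C), LSC1 (YOR142W), LSC2 (YGR244C), FUM1 (YPL262W) and MDH1 (YKL085W). They were chosen by name for their place in the cycle, with earlier results of these data known, and make up 10 of the 6207 open reading frames (ORFs) in the deposited table. RNA was compared between cells exposed to 15 ng/ml caspofungin for 2 h and untreated cells of the same divided culture, both grown in rich medium at 24 °C. Both sides carried the wsc1 mutation in the laboratory strain BY4741. WSC1 encodes a plasma membrane sensor of cell wall stress, and caspofungin inhibits the synthase of the wall polymer β-1,3-glucan. The sources used here do not say whether the mutant was a single clone. The table holds 1 log2 ratio of the dye channels per ORF for each of 2 replicate 2-colour comparisons. The caspofungin RNA carried Cy3 in replicate 1 and Cy5 in replicate 2.

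The cycle runs in the mitochondrial matrix, where it oxidises acetyl-CoA to carbon dioxide, supplies NADH to the respiratory chain and provides carbon skeletons for glutamate and aspartate. In yeast growing on glucose, fermentation carries most of the carbon flow and many cycle genes are partly repressed. The HAP complex activates a number of them during respiratory growth. The Rtg proteins maintain expression of the first genes of the cycle, from citrate synthase to isocitrate dehydrogenase, when mitochondrial function is impaired.

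Because the dyes were exchanged, the sign of replicate 1 was turned so that both ratios have the caspofungin RNA on one and the same side. The labels do not say whether the ratio is Cy5 over Cy3. A positive value below therefore means more RNA with caspofungin if it is Cy5 over Cy3, and less if it is the reverse, and no direction of change is given. Across the 3117 ORFs with a value in both replicates, genes not being independent replicates, Pearson's r between the deposited columns was -0.29. This correlation below 0 is the basis for taking both as the same dye ratio. The labels speak of 2 cultures but do not say whether the 2 columns come from separate ones. The p-values therefore measure only the spread between the columns, which may be technical. Both RNAs of a ratio came from the same mutant, so no level of a gene or of a strain marker could be checked. The mutated gene itself was blank in both replicates.

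All 10 cycle genes had a value in both replicates, against 50.2% of all ORFs in the table. None passed the test against 0. In limma's moderated test with Benjamini-Hochberg adjustment over all 3117 ORFs, 0 of the 10 passed an adjusted p of 0.05, as did 0% of all ORFs. At an unadjusted p of 0.05, the count was 0 of 10 genes, against 13.4% of all ORFs. KGD2 alone passed that limit with columns centred (limma unadjusted p = 0.0165, adjusted p = 0.197), and likewise with columns centred and scaled or with no column turned. Its 2 values had opposite signs when centred. Of the 3117 ORFs, 467 passed that limit with columns centred, 466 with columns also scaled and 94 with no column turned. An adjusted p of 0.05 was passed by 115 ORFs with columns centred and 103 with columns also scaled, and by 0 cycle genes. In the first test, without centring, the lowest adjusted p among the cycle genes was 0.397, for LSC2. The median of their mean log2 ratios was 0.012, beside 0.010 over all ORFs, and 9 of the 10 means lay within 1.2-fold of 0, as did 74.6% of all ORFs. The exception was KGD2. In both replicates 5 of the 10 stayed within 1.2-fold of 0, against 49.2% of all ORFs. The plot of each gene's replicate values shows the same spread around 0.

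**Figure D1:**
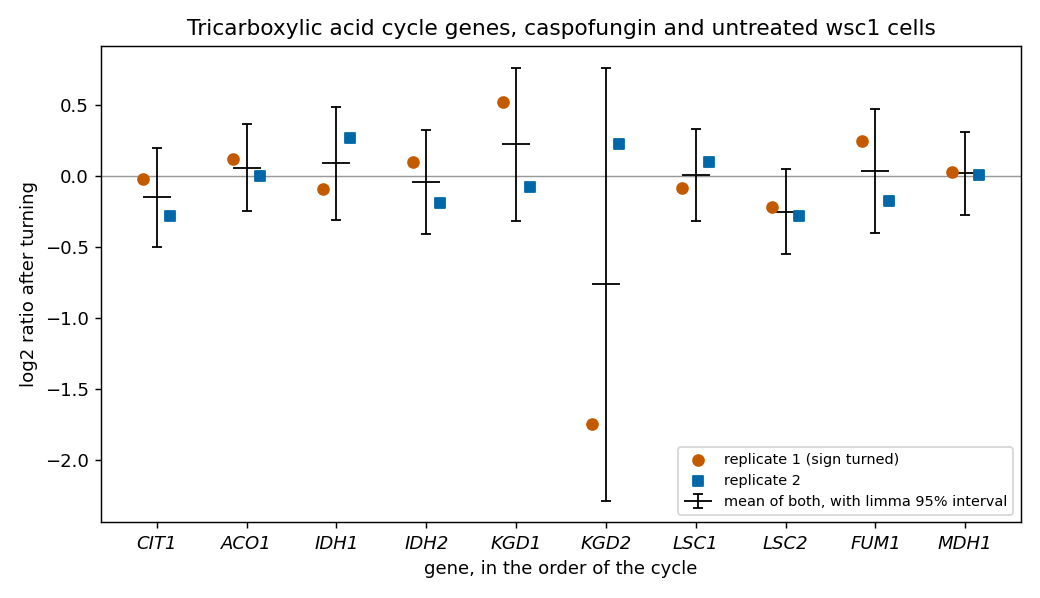
Log2 ratio after turning (vertical axis) of the 10 cycle genes in the order of the cycle (horizontal axis). Circles are replicate 1 (sign turned), squares replicate 2, and black marks the mean with its limma 95% interval. All 10 intervals include 0, and KGD2 has the widest, from -2.29 to 0.76.

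The 2 genes of the first steps had means near 0. CIT1 encodes the mitochondrial citrate synthase, which joins acetyl-CoA to oxaloacetate. Its turned log2 ratio was -0.022 in replicate 1 and -0.28 in replicate 2, a mean of -0.15 ± 0.18 (SD, n = 2, limma adjusted p = 0.588). Both values were negative, and that of replicate 1 was close to 0. ACO1 encodes aconitase, the iron-sulfur enzyme that turns citrate into isocitrate. It had 0.12 in replicate 1 and -0.0036 in replicate 2, a mean of 0.057 ± 0.085 (limma adjusted p = 0.825).

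IDH1 and IDH2 encode the regulatory and the catalytic subunit of the NAD-dependent isocitrate dehydrogenase, which makes α-ketoglutarate. IDH1 had -0.093 in replicate 1 and 0.27 in replicate 2, a mean of 0.088 ± 0.256 (adjusted p = 0.789). IDH2 had 0.10 in replicate 1 and -0.19 in replicate 2, a mean of -0.045 ± 0.205 (adjusted p = 0.886). The subunits thus stood on opposite sides of 0 in each replicate, and each changed side between the replicates. The difference of the log2 ratios, IDH1 minus IDH2, was -0.19 in replicate 1 and 0.46 in replicate 2.

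KGD1 and KGD2 encode subunits of the α-ketoglutarate dehydrogenase complex, which makes succinyl-CoA. KGD1 is the dehydrogenase subunit and KGD2 the dihydrolipoyl transsuccinylase. KGD2 held the greatest value of the list, -1.75 in replicate 1, a size of 3.36-fold, while replicate 2 had 0.23, a size of 1.17-fold on the opposite side. Its mean was -0.76 ± 1.40 (SD, n = 2), with a limma 95% interval from -2.29 to 0.76 (adjusted p = 0.539). Of the 3705 ORFs with a value in replicate 1, 15 had one at least as large in size, KGD2 included. In replicate 2, 1339 of 3166 ORFs reached the size that KGD2 had there. Only 11 of the 3117 ORFs, KGD2 included, had an SD between replicates as large as that of KGD2.

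As deposited, before any turning, KGD2 was positive in both replicates, with 1.75 and 0.23. After turning, its signs were therefore opposite, and its size differed between the replicates. Within 3 places of KGD2 in the order of ORF names, 1 other ORF, CTH1, also had a deposited value above 1 in replicate 1, with 1.32. Such a neighbour was present for 5.88% of the ORFs with a value in replicate 1 and for none of the other 9 cycle genes. Its part in the result was not tested. In replicate 2, CTH1 had a deposited value of -0.39, so after turning it was negative in both replicates, unlike KGD2. CTH1 was named after its values were seen.

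KGD1 had 0.52 in replicate 1, the largest value on the positive side among the cycle genes, and -0.075 in replicate 2. Its mean was 0.22 ± 0.42 (adjusted p = 0.60). KGD1 minus KGD2 was 2.27 in replicate 1 and -0.30 in replicate 2, so these subunits of 1 complex were far apart in a single replicate. LPD1, the dihydrolipoamide dehydrogenase shared with the pyruvate dehydrogenase complex, had -0.071 in replicate 1 and 0.13 in replicate 2. KGD4, a small subunit that helps hold the complex together, had -0.090 in replicate 1 and -0.21 in replicate 2. Neither LPD1 (adjusted p = 0.926) nor KGD4 (adjusted p = 0.542) passed the test.

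LSC1 and LSC2 encode the α and β subunits of succinyl-CoA ligase, the step that makes ATP directly. LSC2 had -0.22 in replicate 1 and -0.28 in replicate 2, a mean of -0.25 ± 0.05 (SD, n = 2). This is a size of 1.19-fold, with a limma 95% interval from -0.55 to 0.045 (adjusted p = 0.397). Of the 2 cycle genes negative in both replicates it had the smaller spread, and 27.4% of all ORFs had a mean at least as large in size. LSC1 had -0.086 in replicate 1 and 0.097 in replicate 2, a mean of 0.0053 ± 0.129 (adjusted p = 0.984). LSC1 minus LSC2 was above 0 in both replicates, 0.13 in replicate 1 and 0.38 in replicate 2, with no test.

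The last steps were also centred on 0. FUM1 encodes fumarase, found in mitochondria and cytosol. It had 0.25 in replicate 1 and -0.18 in replicate 2, a mean of 0.035 ± 0.302 (adjusted p = 0.928). MDH1, the mitochondrial malate dehydrogenase that regenerates oxaloacetate, had 0.030 in replicate 1 and 0.0091 in replicate 2. Its mean of 0.020 ± 0.015 (limma 95% interval from -0.27 to 0.31, adjusted p = 0.941) came from the smallest spread of the 10.

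The sign of a cycle gene in 1 replicate was mostly not repeated in the other. Of the 10 genes, 3 kept one sign across the replicates after turning, against 64.1% of all ORFs. These were MDH1 on the positive side (1 of 10, against 31.6%) and CIT1 and LSC2 on the negative side (2 of 10, against 32.4%). Some of the signs rest on values close to 0: ACO1 (-0.0036) and MDH1 (0.0091) in replicate 2, and CIT1 (-0.022) in replicate 1. Over all ORFs the medians after turning were larger in size, 0.035 in replicate 1 and -0.042 in replicate 2. The signs of such small values say little. With columns centred the count of agreeing signs was also 3, but ACO1 took the place of MDH1. Scaling the columns as well gave these same 3. The other 7 had one sign across the replicates as deposited, against 35.9% of all ORFs. By the mean, 6 were positive, against 52.1% of all ORFs, and 4 negative, against 47.9%. No cycle gene joined a mean beyond 1.5-fold to agreeing signs, against 4.04% of all ORFs, and none did so at 1.2-fold, against 23.2%. Whatever the signs, 1 of 10 means was beyond 1.5-fold, against 4.2%, and 1 of 10 genes was beyond 2-fold in either replicate, against 3.46%. Both counts are KGD2.

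**Figure D2:**
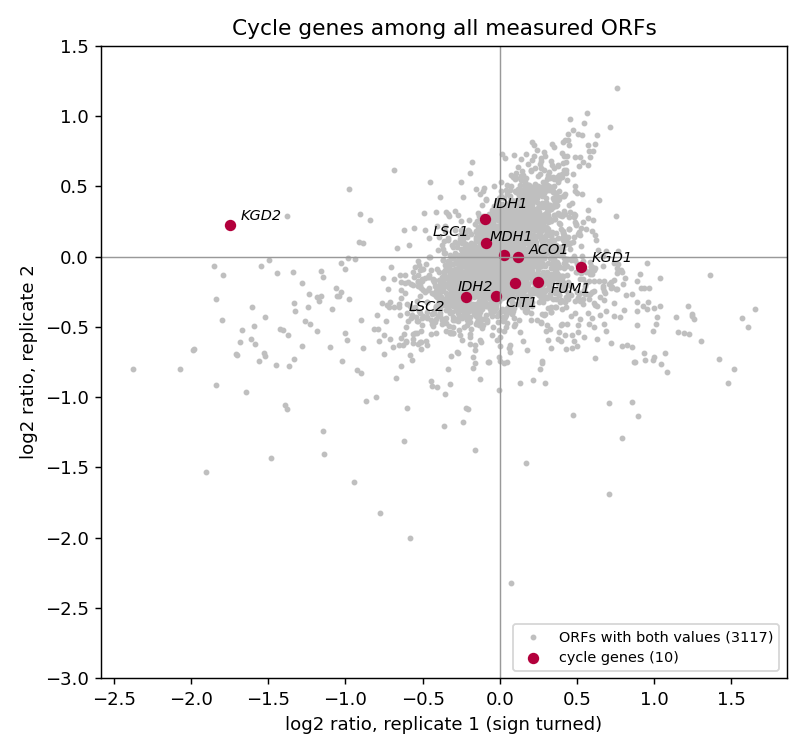
Log2 ratio in replicate 2 (vertical axis) against replicate 1 with its sign turned (horizontal axis) for the 3117 ORFs measured in both (grey) and the 10 cycle genes (red). Only 3 cycle genes, MDH1, CIT1 and LSC2, lie in the quadrants where both signs are the same, and KGD2 stands apart at -1.75 and 0.23.

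The size of the cycle genes' values can be set beside the table's 2 control entries. The entry named Arabidopsis, a non-yeast control, had deposited values of 0.29 in replicate 1 and 0.28 in replicate 2. In replicate 1, 8 of the 10 cycle genes had a smaller size than that entry, against 66.9% of ORFs with a value. In replicate 2 it was also 8 of 10, against 67.6%. The other control entry, 3XSSC, had -0.12 in replicate 1 and -0.17 in replicate 2. Of the cycle genes, 5 of 10 were smaller in size than it in replicate 1, against 31.2% of ORFs, and 4 of 10 in replicate 2, against 45.4%. The median SD between replicates was 0.19 over the cycle genes and 0.13 over all ORFs, and 6 of the 10 genes were above the median of all ORFs.

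Among the enzymes and assembly factors that complete the cycle at succinate dehydrogenase and α-ketoglutarate dehydrogenase, 7 of 13 genes had values in both replicates. Of these 7, 5 were positive and 2 negative by the mean, with a median of 0.12. Of the same 7, 6 kept their sign across the replicates, against 64.1% of all ORFs. SDH3, a membrane anchor subunit of succinate dehydrogenase, had 0.30 in replicate 1 and 0.42 in replicate 2 (adjusted p = 0.366). SDH2, its iron-sulfur subunit, had 0.054 and 0.18 in replicates 1 and 2 (adjusted p = 0.631). Both values of each gene were positive. SDH1 and SDH4, the flavoprotein and the other anchor, were blank in both replicates. SDH7, an assembly factor, had 0.41 in replicate 1 and 0.17 in replicate 2 (adjusted p = 0.397), and SDH5, which attaches flavin to the enzyme, had -0.061 in replicate 1 and -0.38 in replicate 2 (adjusted p = 0.481). None of the 7 passed the test.

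The isozymes outside the cycle, with the glyoxylate and anaplerotic enzymes, had values for 10 of 16 genes, 6 positive and 4 negative, with a median of 0.049. Of these 10, 4 kept their sign across the replicates, against 64.1% of all ORFs. MDH3, the peroxisomal malate dehydrogenase, had 0.23 in replicate 1 and 0.52 in replicate 2 (adjusted p = 0.372). MDH2, the cytosolic form, had 0.28 in replicate 1 and 0.21 in replicate 2 (adjusted p = 0.398). Their mitochondrial counterpart MDH1 stayed closer to 0 in both replicates. PYC2, a pyruvate carboxylase, had -0.034 and -0.30 in replicates 1 and 2 (adjusted p = 0.556). CIT2, the peroxisomal citrate synthase and a well known target of the Rtg proteins, had 0.025 in replicate 1 and -0.39 in replicate 2 (adjusted p = 0.594).

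The genes of pyruvate entry had values for 9 of 11, 5 positive and 4 negative, with a median of 0.089. Of the 9, 7 kept their sign across the replicates, against 64.1% of all ORFs. PKP1, a kinase of the pyruvate dehydrogenase complex, had 0.64 in replicate 1 and 0.41 in replicate 2 (adjusted p = 0.366). PDA1, the subunit on which that kinase acts, had 0.33 in replicate 1 and 0.35 in replicate 2 (adjusted p = 0.366). PTC6, a phosphatase of the complex, had 0.64 in replicate 1 but 0.049 in replicate 2 (adjusted p = 0.446). The genes of the mitochondrial pyruvate carrier, MPC1, MPC2 and MPC3, had means of -0.25, -0.17 and -0.12. They were added after their values were seen, and none passed the test.

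Of the carriers that move cycle intermediates across the inner membrane, 4 of 7 had values in both replicates. All 4 were positive in both, against 31.6% of all ORFs. Their median was 0.33. It was 0.019 with no column turned, where values that agree in sign after turning partly cancel. OAC1, another of these carriers, had a value in replicate 1 only, -0.16 after turning, on the negative side. It was named after its value was seen. CTP1, the citrate carrier, had 0.28 in replicate 1 and 0.43 in replicate 2 (adjusted p = 0.366). DIC1, the dicarboxylate carrier, had 0.38 in replicate 1 and 0.30 in replicate 2 (adjusted p = 0.366). ODC2, an oxodicarboxylate carrier, had 0.39 in replicate 1 and 0.24 in replicate 2 (adjusted p = 0.372). At an unadjusted p of 0.05, these 3 of the 4 were on the positive side, against 5.61% of all ORFs, and 0 passed after adjustment.

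The regulators were mostly without values, with 3 of 10 measured in both replicates. HAP1, a haem-responsive activator, had -0.0016 in replicate 1 and -0.57 in replicate 2 (adjusted p = 0.500). HAP2, a subunit of the HAP complex, had -0.25 and -0.10 in replicates 1 and 2 (adjusted p = 0.488). HAP4, the activation subunit of that complex, had only a value of 0.40 in replicate 1, and RTG2, a cytoplasmic activator of the Rtg pathway, had only 0.37 there. RTG1 and RTG3, its transcription factors, were blank in both replicates. Of the genes for lipoate attachment and iron-sulfur assembly, 3 of 7 were measured in both replicates. All 3 were positive in both, against 31.6% of all ORFs. GCV3, a lipoate-bearing protein of glycine cleavage, had 0.22 and 0.28 in replicates 1 and 2 (adjusted p = 0.397). ISA2 had 0.14 and 0.21 (adjusted p = 0.481) and ISA1 0.23 and 0.050 (adjusted p = 0.584), and both act in assembling the iron-sulfur cluster of aconitase.

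**Figure D3:**
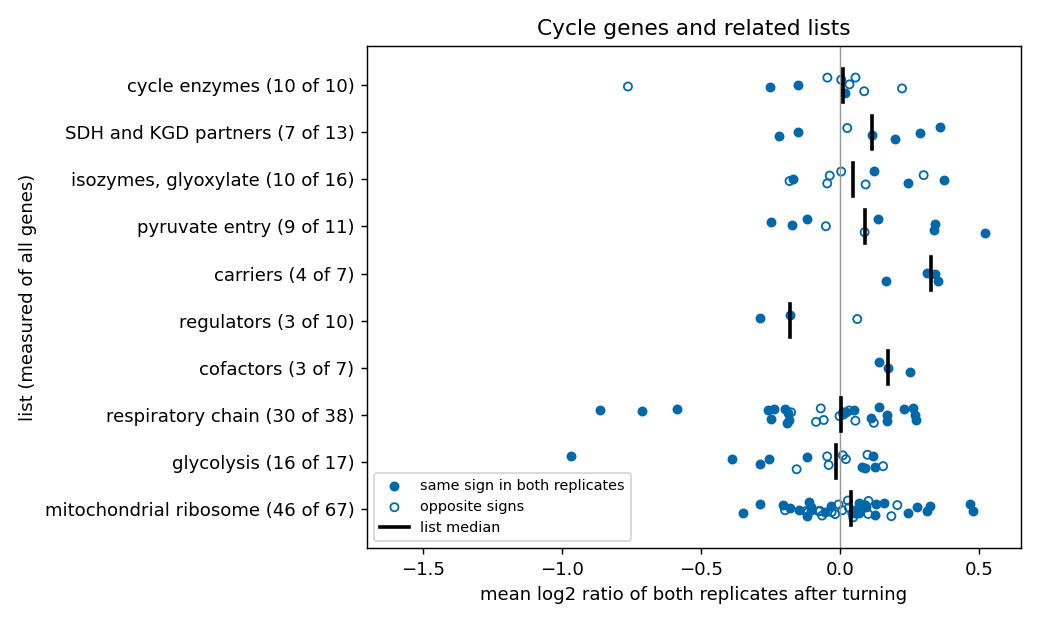
Mean log2 ratio of both replicates after turning (horizontal axis) for the cycle genes and related lists (vertical axis, with measured and total genes). Filled points had agreeing signs in the replicates, open points opposite signs, and bars are list medians. Open points make up 7 of the 10 cycle genes, and the cycle median of 0.012 lies near 0.

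The cycle genes were close in median to the neighbouring parts of energy metabolism. Subunits of the respiratory chain and ATP synthase had a median of 0.0057 over 30 measured genes. Of the 30, 20 kept their sign across the replicates, against 64.1% of all ORFs. Of these 20, 10 were positive in both replicates and 10 negative in both. A mean beyond 1.5-fold with agreeing signs was reached by 3 of the 30, against 4.04% of all ORFs, with either side counted. The share of all ORFs on the negative side alone was not counted. Over all ORFs the means ran from -1.71 to 0.98, so the largest in size was also negative. All 3 genes of the chain were on the negative side. They were QCR6, a subunit of the ubiquinol-cytochrome c reductase complex, with a mean of -0.86, COX9, of cytochrome c oxidase, with -0.71, and CYC7, a cytochrome c isoform, with -0.59 (adjusted p = 0.366 each). Glycolytic enzymes had a median of -0.014 over 16 genes, with the same sign in 9. Among them TDH1, a glyceraldehyde phosphate dehydrogenase, was beyond 1.5-fold, with -1.37 in replicate 1 and -0.56 in replicate 2 (adjusted p = 0.366). These 4 genes were named after their values were seen. The value of TDH1 is uncertain, as its sequence is close to those of TDH2 and TDH3, and the part of this likeness was not tested. Mitochondrial ribosomal proteins had a median of 0.039 over 46 genes, with the same sign in 26. These are descriptions of lists chosen with earlier results known, and the differences between lists were not tested.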

How the data were processed

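RNA of caspofungin-treated and untreated wsc1 cells was compared on 2-colour arrays. Per the labels, dyes were exchanged and 4 arrays were analysed for the condition; the deposited table holds 2 columns. Its values were taken as log2 ratios deposited by the authors, because 2 raised to each value had at most 4 decimals for 100% of values (tolerance 0.001 of the last decimal). The sources used here do not give background correction, normalization, centring or the rule for blanks, and no intensities were used, so the number of arrays limits the precision. Replicates 1 and 2 had values for 3705 and 3166 of 6207 ORFs, with deposited medians of -0.07 and -0.04. The 2 control entries were kept out of tests. RefSeq symbols matched 5654 ORFs.

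The sign of the replicate in which caspofungin RNA carried Cy3 was turned. The 3117 ORFs with both values were tested against 0 (limma 3.58.1, R 4.3.3; intercept, eBayes, two-sided, Benjamini-Hochberg, threshold 0.05), after testing on simulated data. The members and lists were chosen with earlier results of these data known. All members are named, up to 3 genes per related list with the largest mean of consistent sign, and the direct partners, isozymes and regulators. A gene that this rule names is not reported here. Lists have counts and medians, with no test. Alternatives were turning, centring, scaling, prior, minimum fold, blanks and each replicate left out.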

Additional observations from a re-analysis of the deposited data

How the results depend on the processing

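Of the 3117 ORFs, the count past an adjusted p of 0.05 was 0 with the turned columns not centred. It was 115 after centring the turned columns on their medians and 103 with columns also scaled to one spread. The limma prior then had 17.1 and 15.4 degrees of freedom, against 2.64 for the turned columns without centring. The count of cycle genes past that adjusted p was 0 in each of the 6 alternatives tried. KGD2 came nearest, with an adjusted p of 0.197 when centred. With no column turned, 7 cycle genes kept one sign across the replicates, 3 were positive, 1 was beyond 1.5-fold (KGD2) and the median was -0.047. Means then changed sign for ACO1 (-0.060), KGD1 (-0.30), KGD2 (0.99), FUM1 (-0.21) and MDH1 (-0.011). The median of the 4 carriers was then 0.019, because values that agree in sign after turning partly cancel. The mean over members was -0.078 and, without KGD2 (chosen after the values were seen), -0.0020. With 1 replicate left out there was no test. The median was then -0.039 to 0.0039, the positive genes 4 to 5 and the genes beyond 1.5-fold 0 to 1, the last being KGD2 without replicate 2. The mean of 7 genes changed sign when 1 replicate was left out: ACO1 (-0.0036 to 0.12), IDH1 (-0.093 to 0.27), IDH2 (-0.19 to 0.10), KGD1 (-0.075 to 0.52), KGD2 (-1.75 to 0.23), LSC1 (-0.086 to 0.097) and FUM1 (-0.18 to 0.25). With 2 replicates this follows from opposite signs, so it restates the count of 7 genes without agreeing signs and adds nothing to it. The cause of the opposite signs was not tested. Each ratio already pairs treated and untreated RNA of the same divided culture, so the test against 0 is itself a paired comparison. There was no second group to compare.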
